A study of Mus musculus with 6 samples.

Results

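Pancreatic lipases and colipase are the acinar cell products that digest dietary fat. The genes were taken by symbol from the authors' deposited gene table: Clps, Pnlip, Pnliprp1, Pnliprp2 and Cel. Of these 5 names, 4 were found among 14681 genes, and Cel was not in the table, so it has no value here. The table gives Clps the Entrez ID 109791, Pnlip 69060, Pnliprp1 18946 and Pnliprp2 18947. The study sequenced RNA of the dorsal pancreas of C57BL/6 mouse embryos at embryonic day 18.5, in 3 knockout and 3 control samples. The extraction protocol and the series title name Dpy30, a core subunit of the histone H3 lysine 4 methyltransferase complexes, as the gene removed from the pancreas. The sources used here do not give the Cre driver, the genotype of the controls and the sex of the embryos. The table itself carries a name that refers to Pdx1, and it does not say which group is the numerator of its fold changes. Lower is read below as lower in the knockout, the usual convention, and every direction would turn if the table had been made the other way round. Dpy30 itself showed no fall: at a mean of 29.4 counts its deposited log2 fold change was 0.01 ± 0.22 (posterior SD), with an unadjusted p of 0.766 and an adjusted p of 1.00 per the authors' deposited table (DESeq2). Its unshrunken size could not be determined, so the row neither bears out the label nor settles the direction. Gata1, at the same mean of 29.4 counts, was called (adjusted p = 0.0235, authors' deposited table). Knockout below means the samples labelled so.

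Pancreatic lipase, encoded by Pnlip, cuts triglycerides at the surface of fat droplets. Bile salts wash the enzyme off that surface, and colipase (Clps), a small protein with no enzyme activity of its own, anchors it there again. Pnliprp1 and Pnliprp2 encode proteins related to pancreatic lipase. The first is known for little or no lipase activity, whereas the second cleaves triglycerides, phospholipids and galactolipids and serves fat digestion in suckling animals. In rats, both related genes are known to be active before birth, and Pnlip comes on later, towards weaning. Cel encodes the bile salt-stimulated lipase, which also cleaves cholesteryl and vitamin esters.

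Pnlip, Pnliprp1 and Pnliprp2 lie within 107 kb on the plus strand of chromosome 19, per RefSeq on GRCm38. Pnlip covers 58670365 to 58681799, Pnliprp1 58728887 to 58744169 and Pnliprp2 58759723 to 58777534. Clps lies on the minus strand of chromosome 17 (28558210 to 28560766), and Cel on the minus strand of chromosome 2 (28555819 to 28563403). In GENCODE M21, the longest coding transcripts of the 3 lipase genes have 12 or 13 exons and encode 465 (Pnlip), 473 (Pnliprp1) and 482 (Pnliprp2) residues. That of Clps has 3 exons and encodes 113 residues, 10 of them cysteines. The encoded lipases were 66.8% identical between Pnlip and Pnliprp1, 69.0% between Pnlip and Pnliprp2 and 63.6% between Pnliprp1 and Pnliprp2. The coding bases around the catalytic serine are shown because they hold the motif that these enzymes share with other serine hydrolases. The capitals mark the codons of glycine, any residue, serine, any residue and glycine, found once in each open reading frame.
Pnlip: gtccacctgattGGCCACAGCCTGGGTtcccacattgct
Pnliprp1: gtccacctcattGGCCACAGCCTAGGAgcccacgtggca
Pnliprp2: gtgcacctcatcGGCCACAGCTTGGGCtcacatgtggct
Cel: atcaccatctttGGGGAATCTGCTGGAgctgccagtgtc

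Over these 39 bases, Pnliprp1 differed from Pnlip at 7 positions and from Pnliprp2 at 9. The whole transcripts of Pnlip, Pnliprp1 and Pnliprp2 shared no run longer than 23 bases, and 0 words of 31 bases. Clps and its neighbouring relative Clpsl2, which is not in the table, also shared 0 such words. How Salmon divided shorter reads between relatives was not tested.

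Pnliprp1 had the highest level among the members by far, and Pnlip was barely present. Per kilobase of transcript, the authors' deposited mean normalized count over all 6 libraries was 72682 for Pnliprp1, 14595 for Clps, 2784 for Pnliprp2 and 4.86 for Pnlip. Pnliprp1 thus stood 4.98-fold above Clps, 26.1-fold above Pnliprp2 and 14951-fold above Pnlip on this per-length scale. Between Pnliprp1 and Clps, the ratio of implied levels per kilobase was 7.51 in knockout samples and 4.70 in control samples, and between Pnliprp1 and Pnliprp2 it was 17.7 in knockout samples and 28.5 in control samples. With coding length in place of transcript length, Pnliprp1 stood 3.15-fold above Clps over all libraries. Before division by length, the deposited means were 117673 for Pnliprp1, 8918 for Clps, 4376 for Pnliprp2 and 7.23 for Pnlip. Together the 4 genes took 3.58% of the summed means of all genes, 3.21% of it from Pnliprp1 alone. The order of per-length levels has no spread beside it, because the table gives a single mean for all libraries. The depth of each library is unknown for the same reason.

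Colipase and both lipase-related genes fell in the knockout pancreas. Of the 5 members, 3 passed the authors' filter on low counts, and all 3 were called lower at an adjusted p under 0.05 in the authors' DESeq2 test. Over the whole table, 0.479% of 12108 genes with an adjusted p were called lower, 0.264% higher and 0.743% in either direction. Among the 68 genes with a mean count of at least that of Pnliprp2, 16 were called lower (23.5%) and 1 higher. Of these 16, 13 encode acinar enzymes or members, and the other 3 are Ins2, Dmbt1 and Pdia2. The members' calls are therefore read below beside those of the other acinar enzymes. In bulk tissue, fewer acinar cells and less RNA per acinar cell cannot be told apart. The deposited fold changes were shrunken towards 0 by the authors' method, and their error is read as a posterior SD. Fold sizes below were therefore reconstructed without the shrinkage, from the deposited value, its error and its p, and carry an SE. The group means come from the reconstructed fold change and the deposited mean over both groups. They are implied values, since the table holds no value for a single library.

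Clps, the lipase cofactor, fell furthest. Its group means implied by the deposited mean and the unshrunken fold change were 1764 normalized counts in knockout samples and 16072 in control samples. It was 9.11-fold lower (95% interval 6.34 to 13.1), and its p was the smallest of all 12108 genes (adjusted p = 1.13e-28 in the authors' deposited table, DESeq2). The knockout mean was 11.0% of the control mean. The error of the fold change corresponds to a spread between libraries of one group of 22.6% (coefficient of variation). This spread is implied by the authors' fitted error and was not observed in the libraries.

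Pnliprp1, the most abundant of the lipase family here, came next. Its implied means were 35122 normalized counts in knockout samples and 200223 in control samples, a 5.70-fold difference (95% interval 3.88 to 8.38). Its adjusted p of 3.06e-15 per the authors' deposited table (DESeq2) went with the third smallest p of all genes tested. The corresponding implied spread between libraries was 24.0%. Even at 17.5% of the control level, the knockout transcript remained the most abundant of the members, at 21693 counts per kilobase against 123671 in controls.

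Pnliprp2, the lipase of the suckling period, fell least of the called members. Its implied means were 1921 normalized counts in knockout samples and 6831 in control samples, a 3.56-fold difference (95% interval 2.27 to 5.56). Its adjusted p was 1.55e-05 per the authors' deposited table (DESeq2), and the corresponding implied spread between libraries was 27.9%. Knockout samples kept 28.1% of the control level.

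Pnlip, the major adult lipase, could not be assessed. Its deposited mean of 7.23 counts lay under 8.15, below which the authors' test gave a p without adjusting it. The authors' deposited table gives it a log2 fold change of 0.01 ± 0.22 (posterior SD) and an unadjusted p of 0.117. The size of its change, without the shrinkage, could not be determined.

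**Figure D1:**
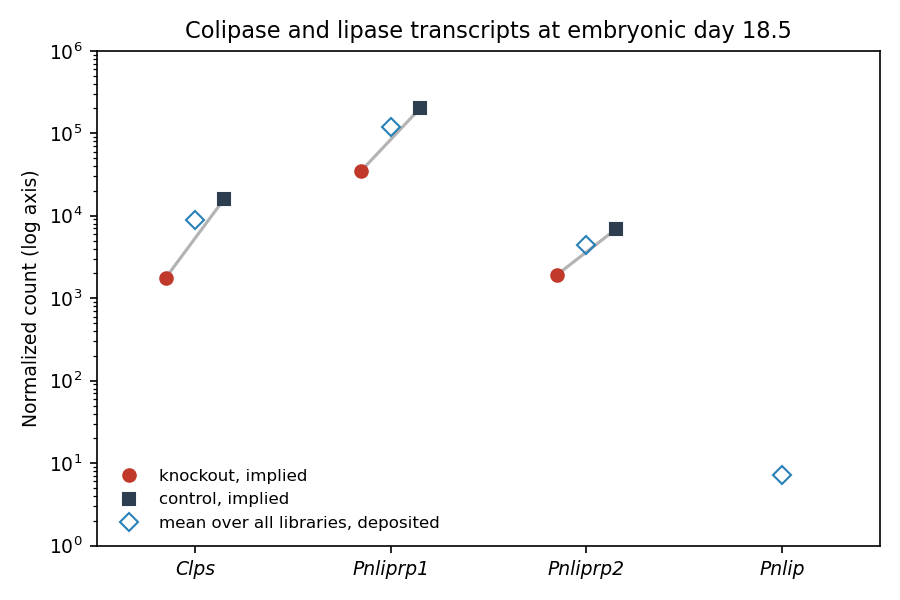
Normalized counts (log axis) of the 4 members in the table: knockout (red circles) and control (dark squares) means implied by the deposited mean and the unshrunken fold change, with the deposited mean over all libraries (open diamonds). The distance between the groups is largest for Clps (1764 in knockout and 16072 in control samples), and Pnlip, with 7.23 counts, has no group means.

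**Figure D2:**
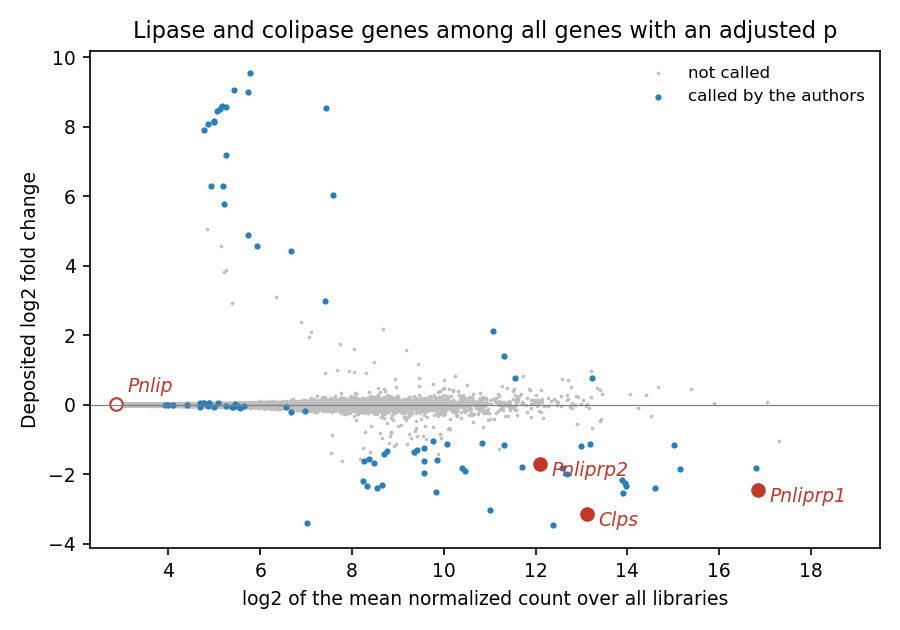
Deposited log2 fold change against the log2 of the mean normalized count for the 12108 genes with an adjusted p, with called genes in blue and members in red; the open circle is Pnlip, which has no adjusted p. Clps, Pnliprp1 and Pnliprp2 lie among the abundant called genes below 0, while Pnlip sits at the low-count edge at 0.01.

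Clps had the lowest value, Pnliprp2 the highest of the called members, and Pnliprp1 lay between them. On the reconstructed log2 scale, the changes were -3.19 ± 0.27 for Clps, -2.51 ± 0.28 for Pnliprp1 and -1.83 ± 0.33 for Pnliprp2 (SE). Of the 10 possible pairs of members, 3 could be compared. The difference of Clps minus Pnliprp2 was -1.36 ± 0.42 (SE), with an interval from -2.19 to -0.53. The difference of Clps minus Pnliprp1 was -0.68 (interval -1.44 to 0.09), and that of Pnliprp1 minus Pnliprp2 was -0.68 (interval -1.53 to 0.17), so these neighbours in the order were not separated. These are 95% intervals that treat the genes as independent, although they share libraries, and no p is given. In implied counts, there were 47.6 Clps reads per 1000 reads of both lipase-related genes in knockout samples and 77.6 in control samples. The ratio of Pnliprp1 to Pnliprp2 counts was 18.3 in knockout samples and 29.3 in control samples.

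Most other acinar enzymes fell as well, and none had a lower value than Clps. Of 22 proteases, amylases and other secreted enzymes in the table, 13 were called lower, 0 higher and 9 neither by the authors' DESeq2 test. Without adjustment, 18 were lower and 2 higher at p under 0.05, against 388 and 387 among all 12108 genes with an adjusted p. The median deposited log2 fold change was -1.30 over the 22, against 0.00 over all genes with an adjusted p. The reconstructed value could be determined for 20 of them, with a median of -1.87. No other enzyme had a value below that of Clps, 3 had one below that of Pnliprp1 and 11 below that of Pnliprp2. The interval of Clps lay wholly below those of 13 of the 20 enzymes, that of Pnliprp1 below those of 8, and that of Pnliprp2 below those of 2. Carboxypeptidase A1 (Cpa1) at -2.60 ± 0.27, the trypsin-like 2210010C04Rik at -3.11 ± 0.38 and the elastase Cela2a at -2.46 ± 0.30 (SE) had the smallest p of this list. The enzymes with the highest mean counts, chymotrypsinogen (Ctrb1) and the amylase Amy2a4, stood at -1.37 ± 0.44 and -1.95 ± 0.36 (SE). Ctrb1 was not called (adjusted p = 0.134, authors' deposited table). The elastase Cela1 at 0.56 ± 0.28 and the trypsinogen Try4 at 1.20 ± 0.36 (SE) were the enzymes with positive values, and neither was called; both were named after their values were seen. Amylases and trypsinogens come as closely related copies that Salmon may not separate, so single-copy values are uncertain.

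**Figure D3:**
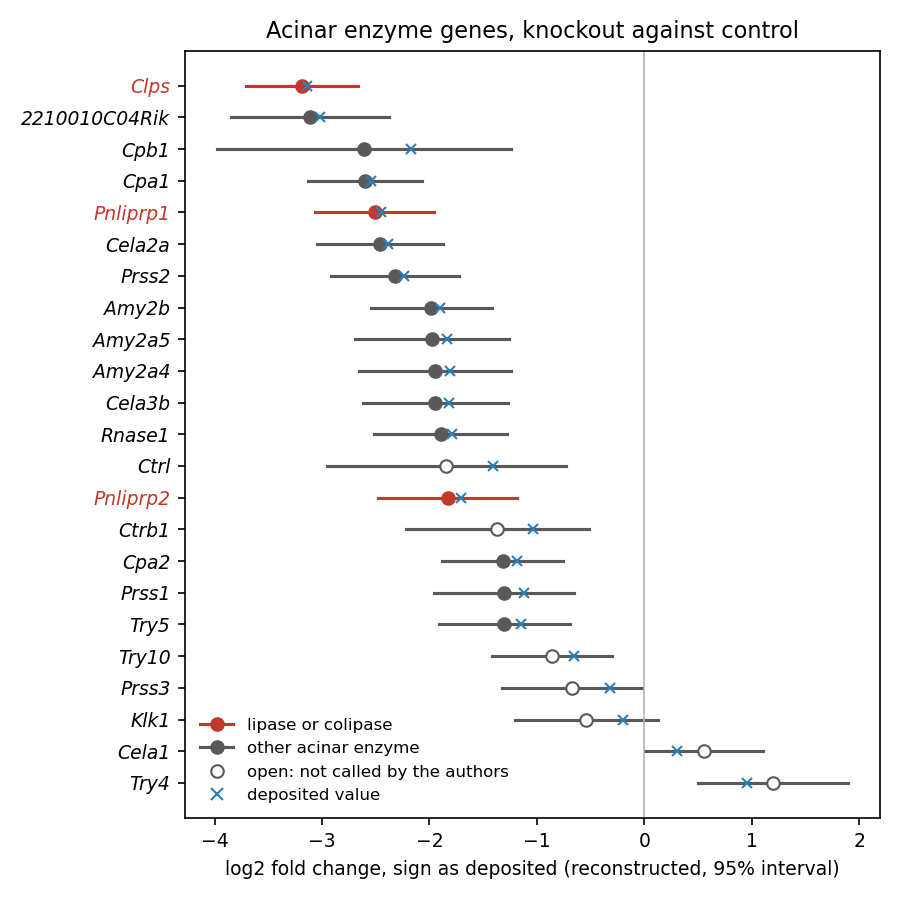
Reconstructed log2 fold changes with 95% intervals for the 3 called members (red) and the 20 other acinar enzymes whose value could be determined (grey); open circles were not called by the authors, and crosses are deposited shrunken values. Clps is the lowest of all 23 at -3.19, Pnliprp1 is among the lowest at -2.51, and Pnliprp2 lies close to the enzyme median of -1.87.

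The implied share of lipases and colipase in the summed acinar enzyme counts was lower in the knockout, a value with no test. Members made up 12.7% of the summed implied counts of 26 acinar enzyme and member genes in knockout samples and 22.9% in control samples. Pnliprp1 accounted for most of this, with 11.5% in knockout samples and 20.6% in control samples. Clps took 0.575% of the pool in knockout samples and 1.65% in control samples. The share of Pnliprp2 was 0.627% in knockout samples and 0.702% in control samples. Summed over members, knockout samples had 17.4% of the control count, and summed over the other enzymes 35.7%. These shares are descriptions: they rest on means, and 3 of the 26 genes, all of low count, entered with their shrunken fold change. Counts were not divided by length here, so the shares do not order genes by level. Per kilobase, Clps stood at 2887 and Pnliprp2 at 1222 in knockout samples. Cel and 4 listed enzymes are absent from the table and so from these sums.

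Non-enzyme proteins of the acinar granule had mostly negative values. Of 7 in the table, 6 had a negative sign, 2 were called lower and 5 were not called; before adjustment, 5 were lower and 1 higher at p under 0.05. The median reconstructed value was -1.60 over the 5 that could be determined. Relative to epithelial genes, 0 were called lower. Syncollin (Sycn), a granule membrane protein, was at -2.08 ± 0.50 (SE) with an adjusted p of 0.00779, and the trypsin inhibitor Spink1 at -2.02 ± 0.55 with one of 0.0312 (both per the authors' deposited table, DESeq2). The serpin Serpini2 was at -1.60 ± 0.47 (SE) and was not called (adjusted p = 0.0751 in the authors' deposited table). No transcript of an acinar transcription factor passed the test. Of 14 factors, the authors' DESeq2 test called 0, with 0 at p under 0.05 before adjustment, and the median reconstructed value of the 13 that could be determined was 0.09. Reconstructed values were 0.34 ± 0.94 (SE) for Ptf1a and 0.04 ± 0.52 for Rbpjl, both subunits of the PTF1 complex that drives acinar enzyme genes. The nuclear receptor Nr5a2 was at -0.08 ± 0.45, Bhlha15, a factor of the secretory cell state, at 0.01 ± 0.42 and Xbp1, a factor of secretory capacity, at 0.12 ± 0.46 (SE). The smallest p-values of the list were those of Foxa3 at -1.59 ± 0.84 and Gata6 at 0.80 ± 0.49 (SE). The 95% interval of Ptf1a ran from -1.49 to 2.17 and that of Rbpjl from -0.98 to 1.06. Both ranges include the values of some enzymes, but not those of the called members or the enzyme median of -1.87. The range of Ptf1a overlaps the interval of Pnliprp2 (-2.48 to -1.18).

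Lipid-handling genes other than the members were not called. The list of other lipid digestion genes also held enzymes that act inside cells, such as Mgll and Lipa. Of its 10 genes, 5 were in the table, and the authors' DESeq2 test called 0. Before adjustment, 1 was lower at p under 0.05. This was Mgll, the monoglyceride lipase, at -1.94 ± 0.65 (SE), with an adjusted p of 0.179 per the authors' deposited table. The lysosomal lipase Lipa was at 0.03 ± 0.22 (posterior SD), with an adjusted p of 1.00 per the authors' deposited table. Of 10 other members of the lipase superfamily, 4 were in the table and only 1 had an adjusted p. The authors' DESeq2 test called 0 of the 4, and 0 had a p under 0.05 before adjustment. The 1 gene with an adjusted p had a mean of 333 counts and a reconstructed value of 0.08. Endothelial lipase (Lipg) had a mean of 3.90 counts and hepatic lipase (Lipc) of 2.75. The list of intracellular lipases and cofactors held neither Mgll nor Lipa. Of its 9 genes in the table, 0 were called, with 0 at p under 0.05 before adjustment. The smallest p of this list belonged to the carboxylesterase Ces1d (0.147) and the diacylglycerol lipase Dagla (0.194). Of 10 genes of fat absorption in the table, 0 were called. The apolipoprotein Apob was higher at p = 0.0151 before adjustment and at an adjusted p of 0.523 per the authors' deposited table. Mttp, the transfer protein that loads Apob with lipid, had an unadjusted p of 0.0595. The median deposited log2 fold change of each of these 4 lists was between 0.00 and 0.01 in size. Deposited values are shrunken, so these medians do not show that the lists were unchanged. A reconstructed value could be determined for only 2, 1, 2 and 2 genes of the lists, in the order given. Those values ran from -1.94 to 0.27.

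No neighbouring gene outside the members was called. Within 200 kb of a member, 16 other genes of the table were found, 11 of them with an adjusted p. The authors' DESeq2 test called 0 of the 16, with 0 at p under 0.05 before adjustment. Their deposited log2 fold changes ran from -0.02 to 0.13, at mean counts of 2.62 to 293. These values are shrunken, so the range does not show that the neighbours were unchanged. Mapk14, named for the largest deposited value, had a reconstructed value of 0.94 ± 0.60 (SE). On chromosome 19, Hspa12a, a heat shock protein family gene 18.2 kb beyond Pnliprp2, had a mean of 4.51 counts, and 1810018F18Rik, between Pnlip and Pnliprp1, one of 11.0. Shtn1, 196 kb beyond Pnliprp2 and named for its higher count, had a mean of 126 counts and a reconstructed value of 0.03 ± 0.89 (SE). Around Clps, the kinase gene Srpk1, 26.9 kb away, was at -0.15 ± 0.61 and Fkbp5, 72.1 kb away on the other side, at -0.21 ± 0.64 (SE). Beside Cel, Ralgds at a distance of 2.74 kb was at 1.03 ± 0.80 (SE), and Gtf3c5 at 2.84 kb at 0.04 ± 0.22 (posterior SD, deposited value).

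**Figure D4:**
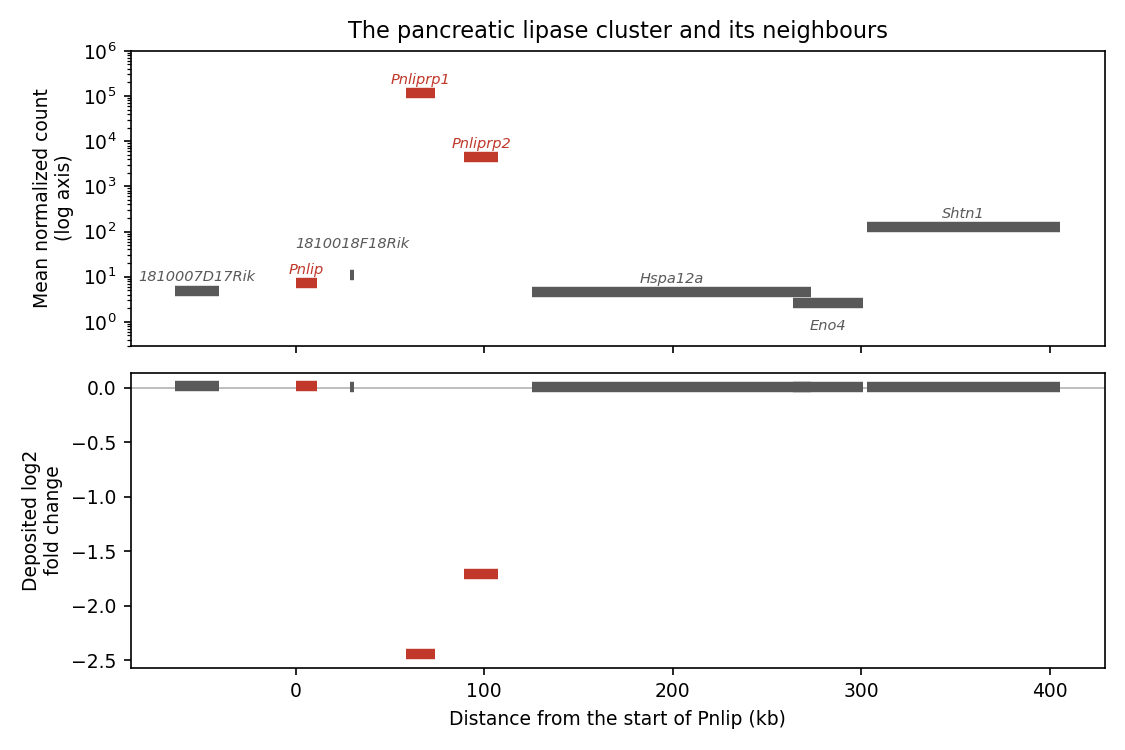
Mean normalized count (top, log axis) and deposited log2 fold change (bottom) of genes around the lipase cluster, against the distance from the start of Pnlip in kb; bars span each gene, members in red. Pnliprp1 and Pnliprp2, at 117673 and 4376 counts and log2 fold changes of -2.45 and -1.71, stand among chromosome 19 neighbours of at most 126 counts. The values of those neighbours are near 0 after shrinkage, and most have no determined size.

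Bases before the starts of the 3 lipase genes are shown because these genes of 1 cluster differ so widely in level. They come from RefSeq (GRCm38.p6), which gave an entry for Pnlip, Pnliprp1, Pnliprp2 and Cel but not for Clps. Each line holds the 250 bases before the RefSeq start, 5′ to 3′ on the gene's strand. For Pnlip, GENCODE M21 places the start of the gene at 58652498, upstream of the RefSeq start at 58670365. Bases before the GENCODE start were not searched. Capitals mark CANNTG (the E-box), TTTCCCA (the RBPJ box of a PTF1 site), AAGGTCA (the NR5A2 site) and AGATAA (known for binding GATA factors), each searched on both strands.
Pnlip, chr19:58670115-58670364, + strand: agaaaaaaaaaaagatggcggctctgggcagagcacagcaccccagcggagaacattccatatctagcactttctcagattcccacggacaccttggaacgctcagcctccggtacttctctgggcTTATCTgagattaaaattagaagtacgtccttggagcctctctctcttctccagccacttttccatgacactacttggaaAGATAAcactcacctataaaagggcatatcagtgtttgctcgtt
Pnliprp1, chr19:58728637-58728886, + strand: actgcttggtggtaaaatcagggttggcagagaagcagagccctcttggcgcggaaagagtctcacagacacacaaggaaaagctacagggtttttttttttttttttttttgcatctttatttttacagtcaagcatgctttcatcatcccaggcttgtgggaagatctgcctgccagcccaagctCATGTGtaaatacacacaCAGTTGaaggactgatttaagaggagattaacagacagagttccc
Pnliprp2, chr19:58759473-58759722, + strand: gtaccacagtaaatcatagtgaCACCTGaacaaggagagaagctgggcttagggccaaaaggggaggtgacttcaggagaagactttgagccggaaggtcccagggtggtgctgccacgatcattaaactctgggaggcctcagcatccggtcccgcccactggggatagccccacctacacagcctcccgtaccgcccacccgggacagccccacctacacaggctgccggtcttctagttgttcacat

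CANNTG was found at 2 places before Pnliprp1, at 1 before Pnliprp2 and at 0 before Pnlip, and 66.2% of 32851 promoters of that length held at least 1. AGATAA was found at 2 places before Pnlip, on opposite strands, and in 9.99% of promoters. Exact copies of TTTCCCA (6.82% of promoters) and AAGGTCA (4.08%) were found before none of the 3 genes. Near matches were not counted. Examples are attccca before Pnlip and, on the other strand, tgggaag before Pnliprp1, each 1 base from TTTCCCA. The promoter of Cel held 5 CANNTG, 1 TTTCCCA and 1 AAGGTCA, and AAGGTCA overlaps the nearest E-box. The pair of an E-box with TTTCCCA within 40 bases occurred there 1 time, and in 2.02% of promoters. These matches are letters in a window and do not show binding, and an absent match says nothing about a factor.

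By mean count and deposited fold change, the genes nearest to the called members were acinar enzymes, Ins2, Dmbt1 and Pdia2. Distances were taken over 2 values of a single comparison, the log2 mean count and the deposited log2 fold change. The nearest to Clps were Ins2 (insulin, distance 0.81), Cpa1 (0.99) and Dmbt1, a secreted scavenger receptor protein (1.17). Nearest to Pnliprp1 were Amy2a4 (0.64), Ctrb1 (1.49) and Amy2a5 (1.80), and nearest to Pnliprp2 were the ribonuclease Rnase1 (0.40), the elastase Cela3b (0.48) and Pdia2, a pancreatic protein disulfide isomerase (0.66). Ins2 is made by beta cells, not by acinar cells. Its deposited mean was 5335 counts and its log2 fold change -3.46 ± 0.42 (posterior SD), with an adjusted p of 2.95e-14 per the authors' deposited table (DESeq2).

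Several marker lists of other cells had signs mostly to one side. Of all 12108 genes with an adjusted p, 5725 had a negative sign and 6383 a positive sign. Before adjustment, 388 of them were lower and 387 higher at p under 0.05. Of 14 endocrine genes in the table, 14 had a negative sign and 4 were called lower. Of 14 genes shared by epithelial cells, 13 had a negative sign and 1 was called lower, with a weighted mean reconstructed value of -0.62 over 11 genes. All 10 mesenchyme genes had a positive sign, with a median reconstructed value of 0.53 and a summed mean count of 76029. The authors' DESeq2 test called 0 of them, with 4 higher at p under 0.05 before adjustment. All 9 liver genes had a positive sign, and 0 were called, with 4 higher at that unadjusted p. All 7 duct genes had a negative sign, with a median reconstructed value of -0.93 over 4 genes; 0 were called and 2 were lower at that p. Of 8 endothelial genes, 4 had a negative and 4 a positive sign, 0 were called and 0 were at that p. Of 6 erythroid genes 1, Gata1, was called higher. Of 6 stomach and duodenum genes, 1 had an adjusted p, 0 were called and 0 were at that p. The part of these shifts in the lipase result was not tested. Relative to the epithelial genes, which adds 0.62 to every gene, the 3 members were still called lower if the shift is taken as exact. The shift was given no error of its own, although the 11 genes behind it ran from -1.69 to -0.05. A call near the threshold, such as that of Pnliprp2, is therefore less certain than its adjusted p. Clps was then at -2.57 (adjusted p = 8.87e-18), Pnliprp1 at -1.89 (adjusted p = 3.69e-08) and Pnliprp2 at -1.21 (adjusted p = 0.0280), from normal p-values of the reconstructed value over its SE with Benjamini-Hochberg adjustment over 12135 genes. On that scale 19 genes of the whole table were lower and 125 higher, against 33 lower and 10 higher for the same genes and p-values with no shift, and 58 lower and 32 higher in the authors' deposited table.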

How the data were processed

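Stranded libraries were made from ribodepleted RNA of 3 knockout and 3 control dorsal pancreas samples, per the labels' protocols. The submitters' processing notes name Trimmomatic, Salmon, DESeq2 and GRCm38 (mm10); not given in the sources used here: versions, annotation, filters, design formula. The authors deposited 1 table with, per gene, a signal (normalized counts averaged across the 6 libraries), a log2 fold change with its error, and a p-value with its adjusted p-value. The table has no per-library values, so replicates could not be compared and no gene was tested again. Per the labels, 3 embryos per group were dissected.

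The deposited log2 fold changes are shrunken by the authors: 92.7% lie within 0.1 of 0. Unshrunken values were reconstructed under a Cauchy prior, whose scale (0.31) was chosen to return the deposited p-values. The z of the result lay within 0.1 of that of the deposited p for 84.4% of 14386 genes. Sizes are printed for the 5697 genes that also had an SE of at most 1. The reconstruction was tested on data simulated with a Cauchy prior as well, so that test cannot show which prior the authors used. The adjustment was tested on simulated p-values. Implied group means solve the deposited mean and the fold change for equal groups with equal scaling, and their spread follows from the SE and 3 libraries per group. Intervals are 95% and normal.

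Members, lists and tests were chosen with earlier results of these data known. Named genes are the members, the 2 genes with the smallest p of each list (3, and the 2 of highest mean count, for acinar lists), any called gene of the lipid lists, 5 acinar factors, any called gene within 200 kb of a member and the nearest table gene on each side, the 3 nearest genes to each called member, and Dpy30. Other marker lists are given by counts. Positions of 14673 of 14681 genes came from RefSeq through Entrez IDs, both on GRCm38, transcript lengths from GENCODE M21. Identities are of global alignments (Biopython 1.88, Python 3.11.15). Alternatives are thresholds, filters, prior scale and scaling.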

Additional observations from a re-analysis of the deposited data

How the results depend on the processing

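No paired analysis was possible because the table has no values per library, and leaving out single replicates was not run for the same reason. Under every alternative run (6 planned and 1 added after seeing the data), 3 members were called lower and 0 higher. Both scalings, each taken as an exact shift, kept the direction and the call of Clps, Pnliprp1 and Pnliprp2. A prior scale 20% smaller or larger and the unshrunken fold change kept their direction; these use the deposited p and cannot change a call. The level of Clps per kilobase moved from 14595 to 26306 with the coding length in place of the transcript length, and the order of members stayed.

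Counts over all genes moved more. Relative to epithelial genes, 19 genes were lower and 125 higher, and relative to the median of all genes 37 were lower and 10 higher. Both use normal p-values of reconstructed values over the 12135 genes with a match. The same p-values and genes with no shift gave 33 lower and 10 higher, against 58 and 32 in the deposited table; the cause was not tested. The number of genes higher was 15 at an adjusted p under 0.01, 54 under 0.1, and 12 among genes with a mean count of at least 50. Other acinar enzymes had 1 gene higher at an adjusted p under 0.1 and 2 relative to epithelial genes, against 0. Granule proteins had 1 gene lower at an adjusted p under 0.01, 1 with matched genes only and 0 relative to epithelial genes, against 2; for the last, the cause was not tested. With 50 more bases after the start, Pnliprp2 had 2 CANNTG instead of 1. Low counts kept Pnlip out of the authors' adjustment.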

Other observations

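Stomach genes appeared in the pancreas table without a test. Gkn1 and Gkn2, which encode gastrokines of the stomach lining, had deposited mean counts of 80.9 and 46.2. Tff1, a trefoil peptide of gastric mucus, had 154, and Pgc, a pepsinogen, had 95.7. All 4 lack a p in the authors' deposited table, as do 295 genes (2.01%) in all, at a median mean count of 29.4. DESeq2 leaves p empty where a single library holds an extreme count, among other cases, and which case applies here was not tested. These 4 genes were named after their values were seen. Gastric lipase (Lipf), the lipase of the stomach, is not in the table. The brush-border gene Vil1 had 84.9 counts (unadjusted p = 0.699 in the authors' deposited table).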
